A study of Mus musculus with 6 samples.

Results

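The 7 genes of the cyclin-dependent kinase (CDK) inhibitors and the stress cytokine gene Gdf15 were followed across 6 libraries of polyadenylated mouse aorta RNA, 2 in each of 3 groups. Members were found by matching the Ensembl identifiers of the deposited tables to mouse symbols: Cdkn1a, Cdkn1b, Cdkn1c, Cdkn2a, Cdkn2b, Cdkn2c, Cdkn2d and Gdf15, 8 of the 27815 genes listed. All 8 were listed in every library. The ApoE group consisted of ApoE-/- C57BL/6 mice (without apolipoprotein E, which clears lipoprotein particles) on chow for 16 months, with calcified atherosclerotic plaques. The CKD group consisted of C57BL/6 mice operated on from 8 weeks of age: the poles of the left kidney were cut away and, after 1 week, the right kidney was taken out. A 2% phosphate diet with 0.45% NaCl in the water followed for 4 weeks and calcified the medial layer of the aorta. The Ctrl group consisted of wild type C57BL/6 mice of 2 months, with no operation named. ApoE and Ctrl differ in age as well as in genotype, and these cannot be told apart. The CKD mice were also older than the Ctrl mice, by the label and by the protocol. They differ from Ctrl in operation, diet and drinking water too. ApoE and CKD differ in genotype, in treatment and, by the protocol, in age. Within each comparison these differences cannot be told apart. The CKD libraries carry an age label of 16 months, which conflicts with the protocol, and their genotype label gives only the disease. Whether the 2 libraries of a group came from separate animals is not stated, and the extraction protocol mentions pooling, for miRNA sequencing, of 4 samples into 1. The p-values therefore cover only how far these libraries vary, and that variation may be technical.

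CDK inhibitors stop cells from entering or completing the division cycle. The Cip/Kip proteins p21 (Cdkn1a), p27 (Cdkn1b) and p57 (Cdkn1c) bind cyclin-CDK complexes broadly. The INK4 proteins p16 (Cdkn2a), p15 (Cdkn2b), p18 (Cdkn2c) and p19 (Cdkn2d) bind CDK4 and CDK6 and thereby keep the retinoblastoma protein active. Cdkn2a also encodes p19Arf, which stabilises p53, from a start of its own. Gdf15 is a secreted member of the TGF-beta superfamily, induced by p53 and by the integrated stress response, and is made by stressed cells and macrophages. High p16, p21 and Gdf15 are widely used as marks of senescent cells, and p27 is abundant in resting smooth muscle.

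Sequence before the starts of 4 members is shown. Cdkn1a and Cdkn2a have alternative starts whose reads a single gene value merges, and Cdkn1b and Gdf15 moved most plainly in opposite directions in the ApoE aorta. Gdf15 and Cdkn2c also have more than 1 RefSeq window, and of these only the Gdf15 window before the gene is printed. The sequences are RefSeq windows of GRCm38.p6, matched for 7 of the 8 members, given 5′ to 3′ on the strand of the gene, with annotated exon bases left off. Capitals mark matches, on either strand, to the TATA box TATAA, the GC box GGGCGG, the NF-Y site CCAAT, the AP-1 site TGANTCA, the C/EBP-ATF site TGATGNAA, the cyclic AMP element (CRE) TGACGTCA, the E2F site TTTNNCGC, the FoxO site TGTTTAC, the E-box CACGTG or the p53 half-site. For Cdkn1a the first window lies before the gene (chr17:29090729-29090975, plus strand) and the second in an intron, before the downstream start (chr17:29093519-29093768). Cdkn1b lies at chr6:134920151-134920400 (plus strand) and Gdf15 at chr8:70632457-70632706 (minus strand), both before the gene. For Cdkn2a the window at chr4:89294654-89294869 (minus strand) precedes the p19Arf start, and that at chr4:89282193-89282442 lies in an intron, before the p16 start.
Cdkn1a, upstream start: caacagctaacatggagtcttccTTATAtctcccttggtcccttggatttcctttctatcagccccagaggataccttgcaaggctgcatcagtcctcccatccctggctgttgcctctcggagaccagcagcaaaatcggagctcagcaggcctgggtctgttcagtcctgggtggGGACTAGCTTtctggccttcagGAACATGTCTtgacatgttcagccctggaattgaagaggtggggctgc
Cdkn1a, downstream start: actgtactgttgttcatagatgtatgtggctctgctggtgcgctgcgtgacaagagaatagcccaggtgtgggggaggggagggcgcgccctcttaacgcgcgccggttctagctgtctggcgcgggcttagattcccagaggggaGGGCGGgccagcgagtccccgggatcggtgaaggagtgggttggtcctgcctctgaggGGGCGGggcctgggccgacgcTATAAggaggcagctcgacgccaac
Cdkn1b: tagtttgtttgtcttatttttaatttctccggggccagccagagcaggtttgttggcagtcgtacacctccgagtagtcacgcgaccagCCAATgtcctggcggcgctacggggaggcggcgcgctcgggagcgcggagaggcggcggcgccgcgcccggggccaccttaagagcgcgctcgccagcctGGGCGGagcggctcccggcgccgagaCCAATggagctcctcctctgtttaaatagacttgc
Cdkn2a, p19Arf start: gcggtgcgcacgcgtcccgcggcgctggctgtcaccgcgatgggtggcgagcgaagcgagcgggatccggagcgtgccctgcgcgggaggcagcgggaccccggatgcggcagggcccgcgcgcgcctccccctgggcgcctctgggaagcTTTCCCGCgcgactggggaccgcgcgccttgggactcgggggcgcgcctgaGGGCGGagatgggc
Cdkn2a, p16 start: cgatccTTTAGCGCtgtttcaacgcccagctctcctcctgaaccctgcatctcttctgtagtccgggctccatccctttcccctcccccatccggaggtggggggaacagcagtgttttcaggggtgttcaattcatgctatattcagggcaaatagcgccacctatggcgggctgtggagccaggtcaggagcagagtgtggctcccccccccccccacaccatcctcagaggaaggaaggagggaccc
Gdf15: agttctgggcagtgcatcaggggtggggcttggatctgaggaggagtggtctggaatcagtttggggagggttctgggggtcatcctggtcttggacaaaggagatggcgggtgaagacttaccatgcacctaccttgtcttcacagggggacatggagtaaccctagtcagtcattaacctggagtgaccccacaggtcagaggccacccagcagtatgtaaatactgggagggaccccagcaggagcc
The upstream Cdkn1a window held 2 p53 half-sites. Such a match was present in 7.13% of the 32851 RefSeq windows of the same length, and also in the Cdkn2d window. The downstream Cdkn1a window held 2 GC boxes (32.7% of all windows have at least 1) and a TATA box 25 to 21 bases before the start (22.8%). Cdkn1b held 1 GC box and 2 CCAAT boxes (33.8%), and each Cdkn2a window held an E2F match (4.28%). The Gdf15 window printed held none of these letters, which says nothing about any factor. The second Gdf15 window, not printed, held a CCAAT box 6 to 2 bases before the start. Of the other motifs, a CRE (1.55% of windows) stood before Cdkn2b, an E-box (6.02%) in the second Gdf15 window, and AP-1 (6.75%), C/EBP-ATF (3.45%) and FoxO (3.17%) matches in no member window. These matches describe letters and not binding.

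Levels are FPKM, that is, reads divided by exon length and by library depth, so genes can be compared within a library. Reads recovered from the values summed to 15.48 to 17.85 M over genes, and the depths by which FPKM were scaled came to 14.42 to 16.63 M. Apoe itself stood at 13.2 and 11.4 FPKM in the ApoE libraries, at 1410 and 1447 in the CKD libraries and at 756 and 627 in the Ctrl libraries. The make-up of the tissue differed between groups: 10 macrophage markers summed to 7812 and 11909 FPKM in ApoE, 1075 and 1701 in CKD, and 544 and 493 in Ctrl, while 8 smooth muscle markers summed to 644 and 561 in ApoE, 3425 and 5946 in CKD, and 8345 and 7477 in Ctrl. Fat also varied, with 8 adipocyte markers at 3001 and 3069 FPKM in ApoE, 7307 and 2432 in CKD, and 380 and 932 in Ctrl. Mesothelial markers, of the outer lining of organs, summed to 9.41 and 5.41 FPKM in ApoE, 56.2 and 45.0 in CKD, and 0.440 and 1.01 in Ctrl, and all 4 tested were called higher in CKD than in Ctrl and lower in ApoE than in CKD. Cardiomyocyte markers summed to 8.72 and 9.20 FPKM in ApoE, 26.2 and 33.5 in CKD, and 7.59 and 7.61 in Ctrl, with 3 of 5 called higher in CKD than in Ctrl. All 10 macrophage markers were called higher in ApoE than in Ctrl and all 8 smooth muscle markers lower. No macrophage, smooth muscle or adipocyte marker was at 0 in any library. Wt1 was at 0 in both Ctrl libraries and Upk1b in Ctrl 1 (mesothelium), and Nppa in the ApoE and CKD libraries (cardiomyocyte). In whole tissue, fewer cells of a type and less RNA per cell cannot be told apart. Mitochondrial genes took 9.67% and 10.9% of reads in ApoE, 9.99% and 5.70% in CKD, and 3.13% and 4.19% in Ctrl.

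A gene was called where limma gave a Benjamini-Hochberg adjusted p below 0.05 over the 14074 genes that reached 1 FPKM in 2 or more libraries. Fold changes are log2 differences of FPKM + 1, which understate the change of low genes, and all adjusted p-values are from that limma fit. ApoE versus Ctrl gave 4 members higher (Cdkn2a, Cdkn2b, Cdkn2c, Gdf15) and 1 lower (Cdkn1b), where 44.1% of all tested genes were called, 19.8% higher and 24.3% lower. CKD versus Ctrl gave 2 members higher (Cdkn1a, Cdkn2b) and 0 lower, where 5.44% of all genes were called, 2.23% higher and 3.21% lower. Set directly against CKD, the ApoE group had 3 members higher (Cdkn2a, Cdkn2c, Gdf15) and 2 lower (Cdkn1a, Cdkn1b), where 39.7% of all genes were called, 18.5% higher and 21.2% lower. By lack of overlap between libraries alone, 6 members were higher and 1 lower in ApoE than in Ctrl, beside 36.4% and 43% of all genes (79.4% together). In CKD against Ctrl 5 members were higher and 2 lower without overlap, beside 29.1% and 35.1% of genes (64.2% together), and in ApoE against CKD 4 were higher and 2 lower, beside 33% and 38% (71% together). Most genes lacked overlap, and the member counts should be read against these shares. The median fold change of the 8 members was 1.45, 0.59 and 0.58 in these comparisons, while that of all tested genes was -0.07, -0.03 and -0.04. All 8 members passed the level filter, Cdkn2a only through the ApoE libraries, and Cdkn2b and Gdf15 through the ApoE and CKD libraries. ApoE versus Ctrl and CKD versus Ctrl share the Ctrl libraries, so their values are given side by side and are not independent.

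**Figure D1:**
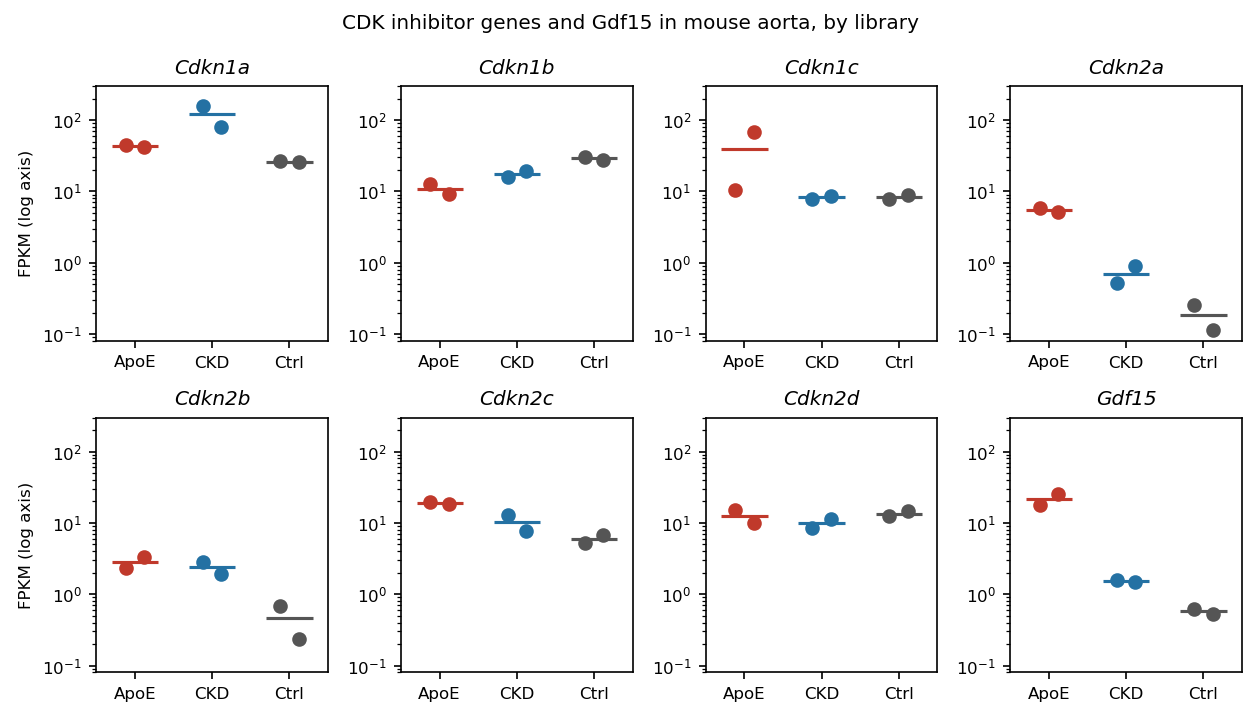
FPKM (log axis) of each of the 8 genes in the 2 libraries of each group; points are libraries and lines are group means. Gdf15 and Cdkn2a stand highest in ApoE and Cdkn1a in CKD, Cdkn1b is highest in Ctrl, and 1 ApoE library holds Cdkn1c at 68.1 FPKM against 10.4 in the other.

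**Figure D2:**
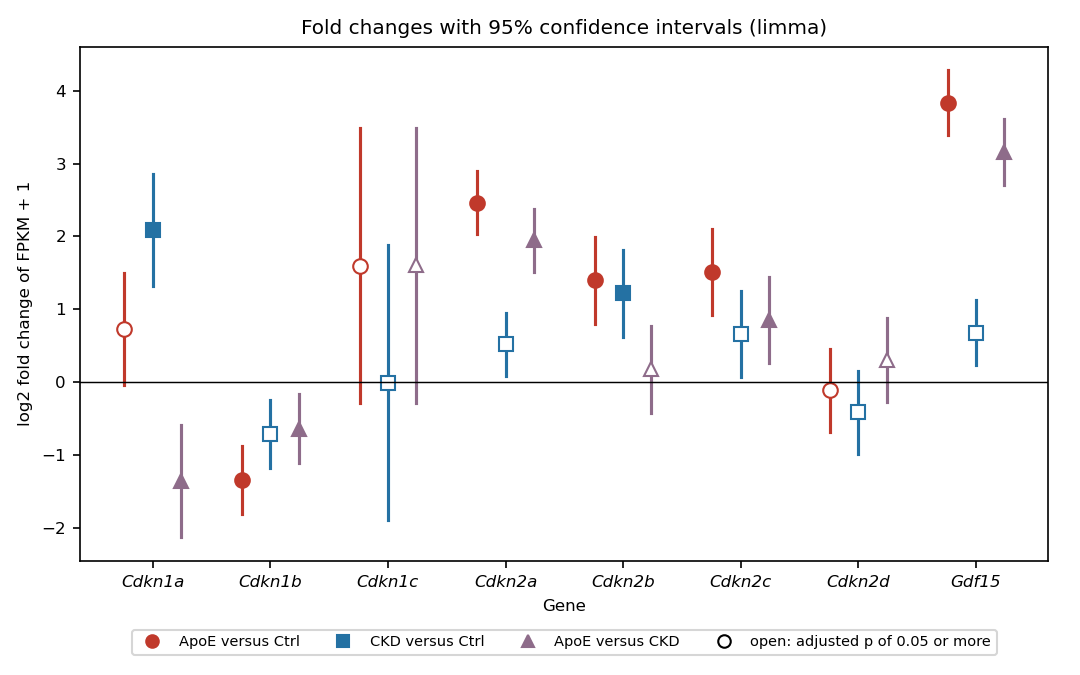
Log2 fold changes of FPKM + 1 for each gene in 3 comparisons, with limma's 95% confidence intervals; filled symbols have an adjusted p below 0.05. The ApoE versus Ctrl interval of Gdf15 runs between 3.39 and 4.28, and the Cdkn1c intervals cross 0.

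Of the Cip/Kip genes, Cdkn1a was the member that moved most in the CKD aorta. Cdkn1a (ENSMUSG00000023067; GRCm38 chr17:29090976-29100727) stood at 45.2 and 42.0 FPKM in ApoE, 160 and 80.6 in CKD, and 26.4 and 25.6 in Ctrl. No library of one group overlapped another group, but CKD 1 was at 1.98 times the level of CKD 2, a gap reached by 4.13% of tested genes. The log2 fold change was 2.09 in CKD versus Ctrl (SE 0.31, adjusted p = 0.0330 from limma) and 0.72 in ApoE versus Ctrl (SE 0.31, adjusted p = 0.110). ApoE was lower than CKD, by -1.36 (adjusted p = 0.0193). Adipocyte markers moved the same way within CKD, at 7307 FPKM in the library with more Cdkn1a and 2432 in the other. In Ctrl they summed to 380 and 932 FPKM, with slightly less Cdkn1a in the second library. Both ApoE libraries, at 3001 and 3069 FPKM, lay above CKD 2 in these markers and below it in Cdkn1a. These are values set side by side, and the part of fat in them was not tested. Mesothelial and cardiomyocyte markers were also highest in CKD, at 56.2 and 26.2 FPKM in CKD 1 and 45.0 and 33.5 in CKD 2, and their part in the Cdkn1a result was not tested. With the adipocyte level as a covariate the CKD versus Ctrl change was 1.08 (adjusted p = 0.596 from limma). Under it the ApoE versus Ctrl change turned to -0.23 (adjusted p = 0.774), and ApoE versus CKD stayed called at -1.30 (adjusted p = 0.00812). That level was lowest in both Ctrl libraries, so in comparisons with Ctrl this setting cannot part fat from group. Without CKD 1 the CKD versus Ctrl change remained called at 1.60, and without CKD 2 at 2.57. Without Ctrl 1, Ctrl 2, ApoE 1 or ApoE 2 it lost its call (2.06 to 2.11, adjusted p between 0.0823 and 0.189). It was also lost without the level filter (adjusted p = 0.0808) and from the 4 CKD and Ctrl libraries alone (0.0826). Leaving out either Ctrl library left no gene called in that comparison, and either ApoE library 1. The ApoE versus Ctrl rise was called with CKD 1 (adjusted p = 0.00602) or CKD 2 (0.00607) left out. ApoE versus CKD lost its call for Cdkn1a without ApoE 1 (-1.41) or ApoE 2 (-1.31). AC167363.2 overlaps Cdkn1a, and without strand its reads cannot be told apart.

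Cdkn1b ran the other way. Cdkn1b (ENSMUSG00000003031; chr6:134920401-134925513) was at 12.7 and 9.13 FPKM in ApoE, 15.7 and 19.2 in CKD, and 30.6 and 27.6 in Ctrl. The groups did not overlap in any of the 3 pairs. It fell in ApoE versus Ctrl by 1.35 on the log2 scale (SE 0.19, adjusted p = 0.00328), and was called lower without each library in turn (-1.57 to -1.13), but not with the adipocyte level as a covariate (-0.96, adjusted p = 0.134). The CKD versus Ctrl difference was -0.71 (adjusted p = 0.0798) and that of ApoE versus CKD -0.64 (adjusted p = 0.0423). The ApoE versus CKD difference kept its call in 1 of the 6 fits that left out a library, that without ApoE 1, with values between -0.86 and -0.42. The smooth muscle marker sum followed the same order of groups. Its part in the result was not tested.

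Within each library the balance of p21 to p27 RNA does not depend on scaling between libraries. Cdkn1a was at 3.56 and 4.6 times the level of Cdkn1b in ApoE, at 10.2 and 4.20 times in CKD, and at 0.862 and 0.927 times in Ctrl. The balance was thus reversed in all 4 libraries of the calcified aortas relative to Ctrl. Cdkn1b was the highest of the 8 genes in both Ctrl libraries, at 29.1 ± 2.16 FPKM (SD, n = 2) beside 26.0 ± 0.586 for Cdkn1a. In CKD Cdkn1a led at 120 ± 55.8 FPKM, with Cdkn1b second at 17.4 ± 2.48. In ApoE Cdkn1a averaged 43.6 ± 2.30 FPKM and Cdkn1b was sixth at 10.9 ± 2.52, not separated from Cdkn2d (12.5 ± 3.53).

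Cdkn1c, an imprinted growth inhibitor, was set apart by a single library. Cdkn1c (ENSMUSG00000037664; chr7:143458339-143461050) stood at 10.4 and 68.1 FPKM in ApoE, 7.83 and 8.63 in CKD, and 7.84 and 8.78 in Ctrl. ApoE 2 was at 6.55 times ApoE 1, from 2063 and 338 reads; a gap as large occurred in 16 of the 14074 tested genes (0.114%). The other 5 libraries lay within 7.83 to 10.4 FPKM. Neither ApoE comparison was called: 1.59 versus Ctrl (SE 0.77, adjusted p = 0.141) and 1.61 versus CKD (adjusted p = 0.147). Without ApoE 1 they were called at 2.89 and 2.91, and without ApoE 2 they were 0.29 and 0.31. CKD versus Ctrl was -0.01 (95% interval -1.90 to 1.88), an interval widened by the spread between the ApoE libraries. The antisense gene Gm44732, which overlaps Cdkn1c, was at 0 to 0.109 FPKM. Among 7446 genes averaging at least 5 FPKM, those most like Cdkn1c over the 6 libraries were Cbr3, a carbonyl reductase (Pearson r = 0.983), Nrgn, a calmodulin-binding protein (0.983), and Tmco4 (0.954), all highest in ApoE 2. Nrgn stood at 8.85 and 26.6 FPKM in ApoE, 6.42 and 5.62 in CKD, and 5.50 and 6.59 in Ctrl. Of 13 other imprinted or related growth genes tested, 2 were called higher and 6 lower in ApoE versus Ctrl (median -0.41). The counts were 0 and 0 in CKD versus Ctrl (0.14), and 1 and 6 in ApoE versus CKD (-0.59). Such counts by group cannot show whether a gene was high in ApoE 2 alone.

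Among the 4 INK4 genes, Cdkn2a, which encodes p16 and p19Arf, had the largest fold change in ApoE versus Ctrl. It passed the level filter only through the ApoE libraries. The fits without a library kept that filter, so they do not check its effect on the calls. Without the filter the ApoE changes stayed called, with adjusted p of 0.00177 (versus Ctrl) and 0.00459 (versus CKD) from limma. Cdkn2a (ENSMUSG00000044303; chr4:89274471-89294653) stood at 5.89 and 5.17 FPKM in ApoE (110 and 90 reads), 0.519 and 0.886 in CKD (9 and 15 reads), and 0.256 and 0.113 in Ctrl (5 and 2 reads). The 3 groups did not overlap. It rose in ApoE versus Ctrl by 2.46 (SE 0.18, adjusted p = 0.000385) and versus CKD by 1.94 (SE 0.18, adjusted p = 0.00117). Scaled to depth, the reads of the ApoE libraries came to 29.5 times those of Ctrl, with an exact 95% interval of 14.0 to 74.2 that covers counting error only. That ratio rests on 7 Ctrl reads and was 49.1 without Ctrl 1 and 21.6 without Ctrl 2. For CKD versus Ctrl the ratio of reads was 3.73 (1.56 to 10.2), or 6.21 without Ctrl 1, and the fitted change of 0.52 was not called (adjusted p = 0.119). Both ApoE calls held without each library in turn, at 2.37 to 2.55 versus Ctrl and from 1.79 upward versus CKD on the log2(FPKM + 1) scale. A gene value cannot say which of the 2 starts shown above the reads came from.

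Cdkn2b (ENSMUSG00000073802; chr4:89306299-89311039), the next gene on the chromosome and a TGF-beta-responsive inhibitor, followed another pattern. It stood at 2.34 and 3.33 FPKM in ApoE (52 and 69 reads), 2.86 and 1.94 in CKD (59 and 39 reads), and 0.690 and 0.237 in Ctrl (16 and 5 reads). ApoE and CKD overlapped and both lay above Ctrl. The change was 1.40 in ApoE versus Ctrl (SE 0.24, adjusted p = 0.00677) and 1.22 in CKD versus Ctrl (SE 0.24, adjusted p = 0.0487), and ApoE versus CKD was 0.18 (95% interval -0.42 to 0.77, adjusted p = 0.598). The ApoE call held without each library in turn, with adjusted p up to 0.0499, and was lost with the adipocyte covariate (1.30, adjusted p = 0.167). The CKD call was kept without CKD 2 (1.42) and lost without each of the other 5 libraries (1.00 to 1.45, adjusted p between 0.0920 and 0.195). It was also lost at a pseudocount of 0.1 (2.25, adjusted p = 0.0560). Cdkn2a stood at 2.51 and 1.55 times Cdkn2b in ApoE, 0.181 and 0.457 times in CKD, and 0.371 and 0.475 times in Ctrl. The Ctrl and CKD ratios rest on few reads and move towards 1 when 1 FPKM is added to each gene. Mtap, the nearest protein-coding gene on the other side of Cdkn2a, looked at after its values were seen, was at 10.2 and 9.49 FPKM in ApoE, 6.92 and 8.05 in CKD, and 8.79 and 9.52 in Ctrl, with no call in any comparison.

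Cdkn2c (ENSMUSG00000028551; chr4:109660876-109667189), whose product p18 acts in early cell cycle exit and in fat cell development, stood at 19.3 and 18.4 FPKM in ApoE, 12.8 and 7.68 in CKD, and 5.26 and 6.71 in Ctrl. The groups did not overlap. It rose in ApoE versus Ctrl by 1.51 (SE 0.24, adjusted p = 0.00501), and ApoE stood 0.86 above CKD (adjusted p = 0.0354). CKD versus Ctrl was 0.66 (adjusted p = 0.138), and was called without CKD 2 (0.99, adjusted p = 0.0309). The ApoE versus CKD call remained only without CKD 1 among the 6 fits that left out a library (0.52 to 1.19). The genes most like it were Taldo1, a pentose phosphate enzyme (r = 0.9996), Pnpla3, a lipid droplet enzyme (0.996), and Pts (0.995). Pnpla3 stood at 21.4 and 22.8 FPKM in ApoE, 8.09 and 2.43 in CKD, and 0.842 and 2.19 in Ctrl. In CKD and in Ctrl the library with the higher adipocyte sum also held more Cdkn2c. Between groups CKD 1 had a higher adipocyte sum (7307 FPKM) and less Cdkn2c than the ApoE libraries (3001 and 3069). The part of fat in these values was not tested. With the adipocyte level as a covariate the ApoE versus Ctrl change was 0.63 (adjusted p = 0.153 from limma). That of CKD versus Ctrl was -0.28 (adjusted p = 0.818), and that of ApoE versus CKD 0.91 (adjusted p = 0.00387).

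Cdkn2d (ENSMUSG00000096472; chr9:21288410-21291407) was called in none of the 3 comparisons. It stood at 15.0 and 10.0 FPKM in ApoE, 8.34 and 11.5 in CKD, and 12.4 and 14.5 in Ctrl. ApoE overlapped both other groups. Its changes were -0.12 in ApoE versus Ctrl (95% interval -0.69 to 0.46), -0.42 in CKD versus Ctrl (-0.99 to 0.16) and 0.30 in ApoE versus CKD (-0.27 to 0.88). Cdkn2c was at 1.28 and 1.83 times Cdkn2d in ApoE, 1.54 and 0.669 times in CKD, and 0.424 and 0.462 times in Ctrl.

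Summed over the 7 inhibitors, the level was 111 and 156 FPKM in ApoE, 208 and 130 in CKD, and 83.5 and 83.5 in Ctrl. Cdkn1a alone made up 40.8% and 26.9% of that sum in ApoE, 76.9% and 61.8% in CKD, and 31.6% and 30.6% in Ctrl. The share of Cdkn1b was 11.5% and 5.85% in ApoE, 7.55% and 14.7% in CKD, and 36.7% and 33.0% in Ctrl. The INK4 genes together took 38.4% and 23.7% in ApoE, 11.8% and 16.9% in CKD, and 22.3% and 25.9% in Ctrl, while their summed level was 42.6 and 36.9 FPKM in ApoE, 24.6 and 22.0 in CKD, and 18.6 and 21.6 in Ctrl. The CKD sum was thus mostly Cdkn1a, and the ApoE 2 sum was led by Cdkn1c at 43.6%.

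**Figure D3:**
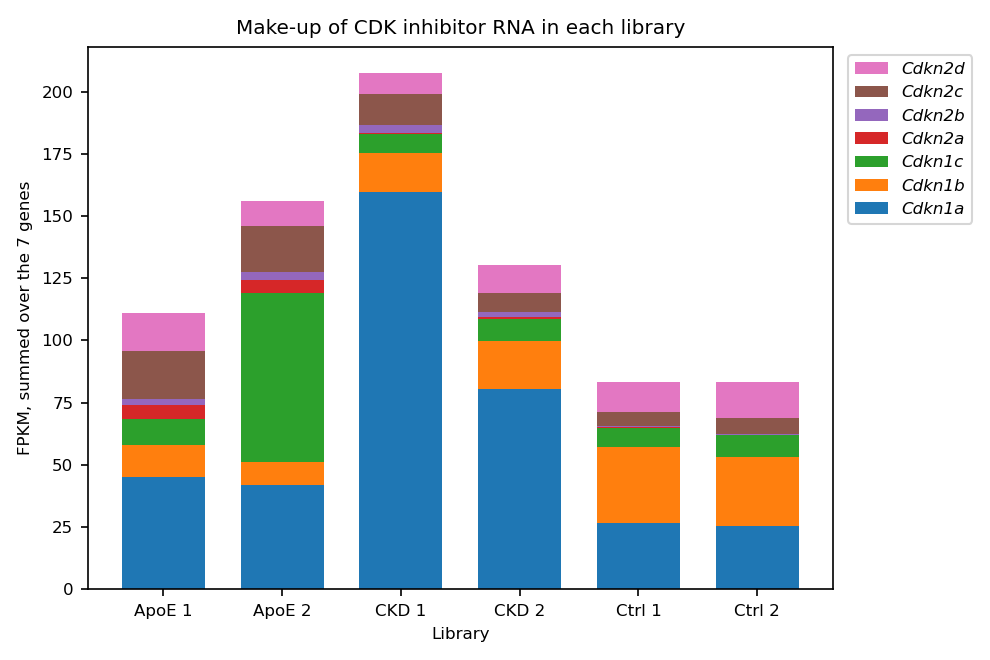
Stacked bars of FPKM for the 7 CDK inhibitor genes in each library (bars start at 0). Cdkn1a fills 76.9% and 61.8% of the CKD bars, and Cdkn1b fills 36.7% and 33.0% of the Ctrl bars.

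Gdf15 (ENSMUSG00000038508; chr8:70629393-70632456) had the largest fold change of the 8 members, in both comparisons of the ApoE group. It stood at 18.0 and 25.5 FPKM in ApoE (531 and 702 reads), 1.57 and 1.46 in CKD (43 and 39 reads), and 0.617 and 0.535 in Ctrl (19 and 15 reads). No groups overlapped. The rise was 3.83 in ApoE versus Ctrl (SE 0.18, adjusted p = 0.000182) and 3.16 in ApoE versus CKD (adjusted p = 0.000542), with 3.59 to 4.07 and 2.92 to 3.40 when each library was left out. In reads scaled to depth, ApoE held 37.4 times the Ctrl level (exact 95% interval 26.6 to 54.3). CKD held 2.62 times the Ctrl level (1.74 to 4.03), and its fitted change of 0.67 was not called (adjusted p = 0.0804). At a pseudocount of 0.1 that change was 1.26 and called (adjusted p = 0.0433). Gdf15 was at 0.399 and 0.608 times Cdkn1a in ApoE, at 0.00984 and 0.0181 times in CKD, and at 0.0234 and 0.0209 times in Ctrl, so the CKD libraries with the highest Cdkn1a held little Gdf15. With 1 FPKM added to each gene the CKD and Ctrl ratios also move towards 1.

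The genes whose levels ran most like Gdf15 were Vps18, a lysosomal trafficking subunit (r = 0.9994), Tcirg1, a subunit of the vacuolar proton pump (0.9991), and Gngt2 (0.9990). Tcirg1 stood at 88.2 and 122 FPKM in ApoE, 20.7 and 20.0 in CKD, and 13.0 and 13.2 in Ctrl. Those most like Cdkn2a were Cfp, which encodes properdin (0.9993), Lrrc25 (0.9991), and Arpc3, an actin-nucleating subunit (0.9986). Lrrc25 is also the nearest annotated gene on one side of Gdf15 and stood at 40.7 and 34.3 FPKM in ApoE, 3.60 and 6.08 in CKD, and 2.83 and 2.42 in Ctrl. For Cdkn1a the likest were Pcid2 (0.994), the proteasome subunit Psmd3 (0.994) and Etv3 (0.993). For Cdkn1b they were Pla2g4a (0.998), Agrn (0.998) and the potassium channel gene Kcnh2 (0.997). Cdkn2b was most like Hlx (0.985), Scamp3 (0.983) and Cdc42ep1 (0.983), and Cdkn2d most like Eid1 (0.996), Nono (0.984) and Dynlt3 (0.976). These are correlations over 6 libraries that share group, depth and tissue make-up, picked as the highest of 7446, and they carry no test.

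Macrophage markers moved with Gdf15 and Cdkn2a, the sum being highest in ApoE 2 with Gdf15, while Cdkn2a was slightly higher in ApoE 1. Their part in these results was not tested.

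The pathways around the inhibitors were described from 11 lists, whose counts stand beside 44.1% of all genes called in ApoE versus Ctrl, 5.44% in CKD versus Ctrl and 39.7% in ApoE versus CKD. The called share of a list was 33.3% to 81.8% in ApoE versus Ctrl, 0% to 20% in CKD versus Ctrl and 20.8% to 66.7% in ApoE versus CKD, so several lists lay near the share of all genes. Of 11 G1 cyclins and CDKs, the kinases the inhibitors act on, 3 were called higher and 3 lower in ApoE versus Ctrl (median -0.12). Cyclin D1 (Ccnd1) averaged 12.9 ± 2.23 FPKM in ApoE and 5.32 ± 0.580 in Ctrl (adjusted p = 0.00875), whereas Ccnd2 averaged 5.87 ± 0.751 in ApoE and 18.6 ± 0.0592 in Ctrl (adjusted p = 0.00784). Ccnd3 (-0.76) and the CDK-activating kinase Cdk7 (-0.62) also fell. For CKD versus Ctrl, 0 of 11 were called (median -0.34); Ccnd2 was at -1.05 (adjusted p = 0.0775) and Cdk4 at -0.20. In ApoE versus CKD 4 were higher, Ccnd1 (1.66), Ccne1 (0.89), Cdk6 (0.80) and Cdk4 (0.71), and 0 lower (median 0.08).

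Of 15 pocket proteins and E2F factors, 2 rose in ApoE versus Ctrl, E2f1 (1.29) and Rbl1 (0.82), and 3 fell, among them Tfdp2 (-1.10) and Rbl2 (-0.60). E2f1 stood at 6.19 and 5.12 FPKM in ApoE, 0.858 and 1.54 in CKD, and 1.91 and 1.53 in Ctrl. None was called in CKD versus Ctrl, where E2f4 was at -0.31 and Tfdp1 at -0.36, and ApoE versus CKD had 3 higher, including E2f1 (1.61) and Rbl1 (0.88), and 3 lower, including Tfdp2 (-1.24) and Lin52 (-0.78). The medians of this list were -0.05, -0.15 and 0.17 in the 3 comparisons. Of 19 tested S, G2 and M phase genes, 8 rose, 1 fell (Mcm6, -1.04) and 10 were not called in ApoE versus Ctrl (median 0.75). The 4 with the lowest adjusted p among those that rose were the kinase genes Cdk1 (1.15) and Aurkb (1.19) and the replication genes Mcm5 (1.08) and Mcm2 (0.75). The proliferation antigen gene Mki67 stood at 5.10 and 2.71 FPKM in ApoE, 0.444 and 0.688 in CKD, and 0.388 and 1.69 in Ctrl. CKD versus Ctrl had 0 and 0 of 19 (median -0.11), with Mcm6 at -0.62 and Pcna at 0.16, and ApoE versus CKD had 9 higher and 0 lower (median 0.95).

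p53 targets split in direction. Of 29 tested, 8 rose and 10 fell in ApoE versus Ctrl (median 0.14). The apoptosis gene Pmaip1 (2.29) and Gadd45a, a growth arrest gene (3.94), rose, while Perp (-3.56) and Trp53inp1 (-3.02) fell. Gadd45a stood at 19.4 and 42.9 FPKM in ApoE, 1.46 and 1.92 in CKD, and 1.36 and 0.599 in Ctrl. In CKD versus Ctrl 2 rose, Plk2 (1.63, adjusted p = 0.0274) and Pmaip1 (1.37, adjusted p = 0.0274), and 0 fell (median 0.04). ApoE versus CKD had 4 higher and 9 lower (median -0.02), with Gadd45a at 3.48 and Trp53inp1, Perp and Ddit4 at -3.65, -3.60 and -3.01. Cdkn1a and Gadd45a, both p53 targets in mouse, were therefore highest in different groups.

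The integrated stress response list, which covers ATF4 targets and partners of Gdf15 induction, gave 5 of 20 higher and 6 lower in ApoE versus Ctrl (median 0.02). Atf3 (1.76), a stress-induced factor, and the amino acid transporter subunit Slc3a2 (1.20) rose, and Vldlr (-1.58) and Aldh1l2 (-1.26) fell. In CKD versus Ctrl 2 rose, Asns, asparagine synthetase (1.80, adjusted p = 0.0429), and Slc3a2 (1.11, adjusted p = 0.0230), and Vldlr fell by 0.82 (median of the list 0.20). ApoE versus CKD had 3 higher, with Cebpg (0.81), and 6 lower, with Ddit4 (-3.01), Stc2 (-1.88) and Ppp1r15a (-0.98), at a median of -0.35. Slc3a2 stood at 53.7 and 58.6 FPKM in ApoE, 52.5 and 53.1 in CKD, and 24.5 and 23.3 in Ctrl, above Ctrl in both calcified groups. Atf3 was highest in ApoE, as Gdf15 was, at 62.7 and 100 FPKM in ApoE, 27.5 and 37.4 in CKD, and 18.7 and 27.7 in Ctrl. Atf4 and Ddit3, named after their values were seen, were not called in ApoE versus Ctrl (0.22 and 0.09). Atf4 averaged 99.9 FPKM in ApoE, 136 in CKD and 85.9 in Ctrl. Ddit3 was called higher in ApoE than in CKD (1.06). The list thus held different patterns, and its part in the Gdf15 result was not tested.

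Of 28 senescence-associated secreted and nuclear genes, 15 rose and 3 fell in ApoE versus Ctrl (median 1.30). The list includes inflammatory genes that macrophages make. The genes that rose also include Lmnb1 (0.73, limma adjusted p = 0.0399), a nuclear gene that senescent cells lose, named here after its values were seen. The count therefore does not measure senescence. The macrophage elastase gene Mmp12 averaged 246 ± 5.61 FPKM in ApoE, 11.6 ± 4.41 in CKD, and 0.630 ± 0.271 in Ctrl. Mmp13 (3.43), Tnfrsf1b (2.92) and Hgf (1.78) also rose in ApoE versus Ctrl. The 3 that fell, Igfbp5, Igfbp6 and Igfbp7, are binding proteins of insulin-like growth factors. Of the same family, Igfbp2 (2.71) and Igfbp3 (1.78) were called higher in that comparison, and Igfbp4 (0.23) was not called. For ApoE versus Ctrl these binding proteins are named after their values were seen. Against Ctrl, CKD had 2 higher and 0 lower (median 0.54): Igfbp3 (3.48, adjusted p = 0.0120) and Mmp12 (2.91, adjusted p = 0.0145). Igfbp3 stood at 7.94 and 5.65 FPKM in ApoE, 29.3 and 19.7 in CKD, and 1.54 and 0.992 in Ctrl. ApoE versus CKD had 9 higher, among them Mmp12 (4.34), Il1a (3.03), the lysosomal beta-galactosidase gene Glb1 (1.53) and Hgf (1.48), and 5 lower (median 0.50).

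Polycomb proteins and other regulators keep the Cdkn2a to Cdkn2b region silent or activate it. Of 24 tested, 0 rose and 9 fell in ApoE versus Ctrl (median -0.20). Cbx7, a Polycomb subunit that represses Cdkn2a, stood at 4.13 and 3.87 FPKM in ApoE, 14.5 and 12.7 in CKD, and 14.2 and 12.2 in Ctrl (-1.50 in ApoE versus Ctrl, adjusted p = 0.000743). Id1 (-1.76), Cbx6 (-1.14) and Pcgf2 (-0.97) fell too. CKD versus Ctrl had 0 and 0 (median -0.08), with Id1 at 0.02 and Id3 at -0.07, and ApoE versus CKD 0 higher and 5 lower (median -0.11), including Id1 (-1.78), Cbx7 (-1.55), Tbx2 (-0.98) and Kdm6b (-0.75). The smooth muscle marker sum was likewise lower in ApoE than in both other groups, and its part in these values was not tested.

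For Cdkn1b, 14 tested genes of p27 turnover and the FoxO factors that drive it gave 1 higher and 4 lower in ApoE versus Ctrl (median -0.12). Jazf1 (-1.48), Rnf123, a ligase subunit that degrades p27 (-1.07), Foxo3 (-0.88) and Cul1 (-0.45) fell. CKD versus Ctrl had 0 and 0 (median -0.03), with Skp1a at 0.05 and Ywhaz at -0.07, and ApoE versus CKD 1 higher and 5 lower (median -0.10), among them Rnf123 (-0.92), Foxo3 (-0.79), Foxo1 (-0.76) and Cul1 (-0.53). Among imprinted or related growth genes named beside Cdkn1c, Igf2r rose (1.16) and Gpc3 (-2.57), Peg3 (-1.86) and Sgce (-1.16) fell in ApoE versus Ctrl. Gpc3, on the X chromosome, is a related growth gene and not an imprinted one. Versus CKD the ApoE values were 1.19 for Igf2r, -2.86 for Gpc3, -2.83 for Peg3 and -0.98 for Sgce, and in CKD versus Ctrl Gpc3 was at 0.28 and Dcn at 0.03.

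Glucocorticoid-responsive genes, listed because Cdkn1a and Cdkn1c respond to these hormones, gave 3 of 15 higher and 9 lower in ApoE versus Ctrl (median -1.02). Zbtb16 (-3.86), Klf15 (-2.56), Fkbp5 (-2.34) and Klf9 (-2.05) fell. Against Ctrl, 3 rose in CKD, Pdk4 (2.16), the metallothionein gene Mt1 (1.61) and Sgk1 (1.53), with adjusted p of 0.0460, 0.0392 and 0.0392, and 0 fell (median 0.94). ApoE versus CKD had 0 higher and 10 lower (median -1.28), including Zbtb16 (-4.08), Mt1 (-3.22), Fkbp5 (-2.97) and Klf15 (-2.92). Mt1 stood at 112 and 88.2 FPKM in ApoE, 1062 and 817 in CKD, and 246 and 376 in Ctrl. Cdkn1a was likewise highest in CKD, but it was lowest in Ctrl and Mt1 in ApoE. Gdf15 and Cdkn2a were highest in ApoE.

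The last list held genes for processing of GDF15, related TGF-beta ligands, and the transcription factor genes Nr4a1 and Egr1. Of its 11 tested genes, 3 rose and 6 fell in ApoE versus Ctrl (median -0.97). The membrane protease Mmp14 (1.87) and Tgfb1 (1.72) rose, and the proprotein convertase Pcsk5 (-2.18) and Tgfb3 (-1.57) fell. CKD versus Ctrl had 0 and 0 (median -0.07), with Gdf10 at 0.61 and Nr4a1 at -0.21, and ApoE versus CKD 2 higher, Tgfb1 (1.83) and Mmp14 (1.57), and 4 lower, among them Pcsk5 (-2.11) and Egr1 (-1.60), at a median of -0.32. In CKD versus Ctrl the calls of all these lists rest on a comparison in which leaving out Ctrl 1 or Ctrl 2 left 0 genes called, and ApoE 1 or ApoE 2 left 1, beside 766 with all 6 libraries.

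**Figure D4:**
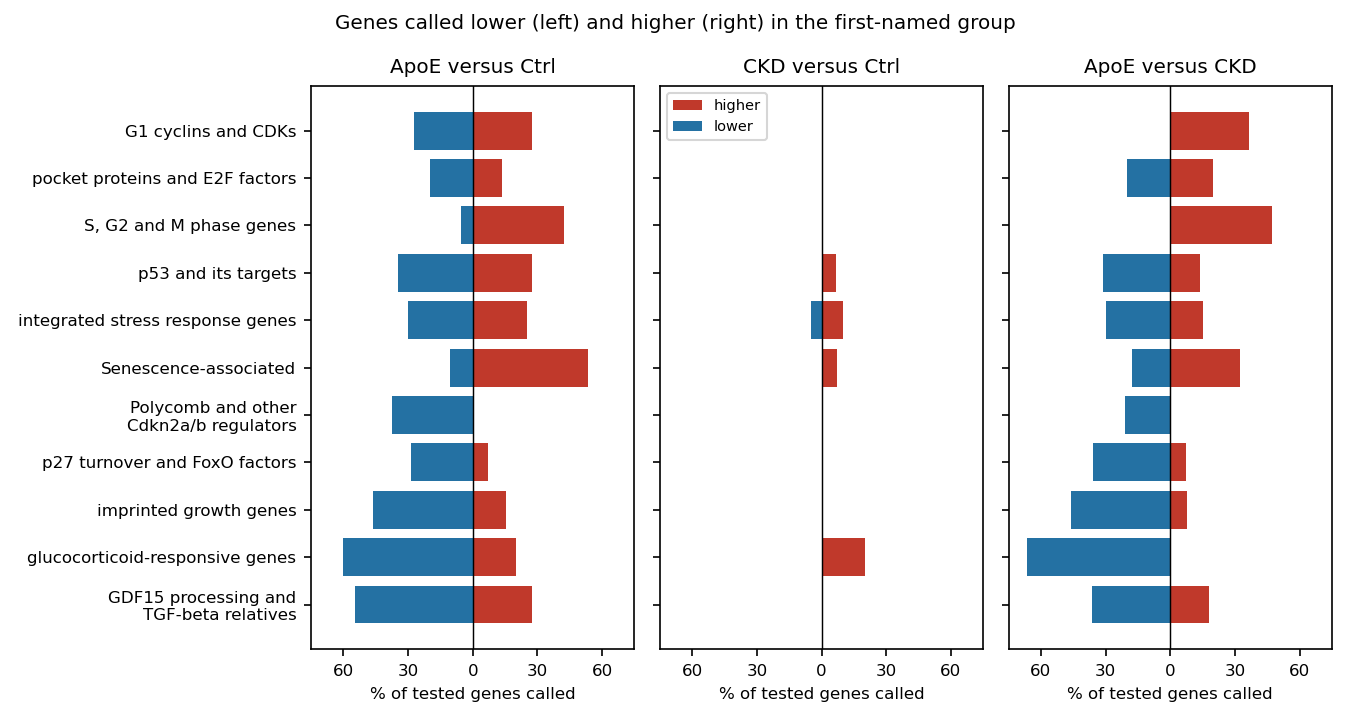
Percent of the tested genes of each list called higher (right, red) or lower (left, blue) in the first-named group of each comparison. Both directions together make up 33.3% to 81.8% of a list in ApoE versus Ctrl (44.1% of all genes), 0% to 20% in CKD versus Ctrl (5.44%) and 20.8% to 66.7% in ApoE versus CKD (39.7%).

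**Figure D5:**
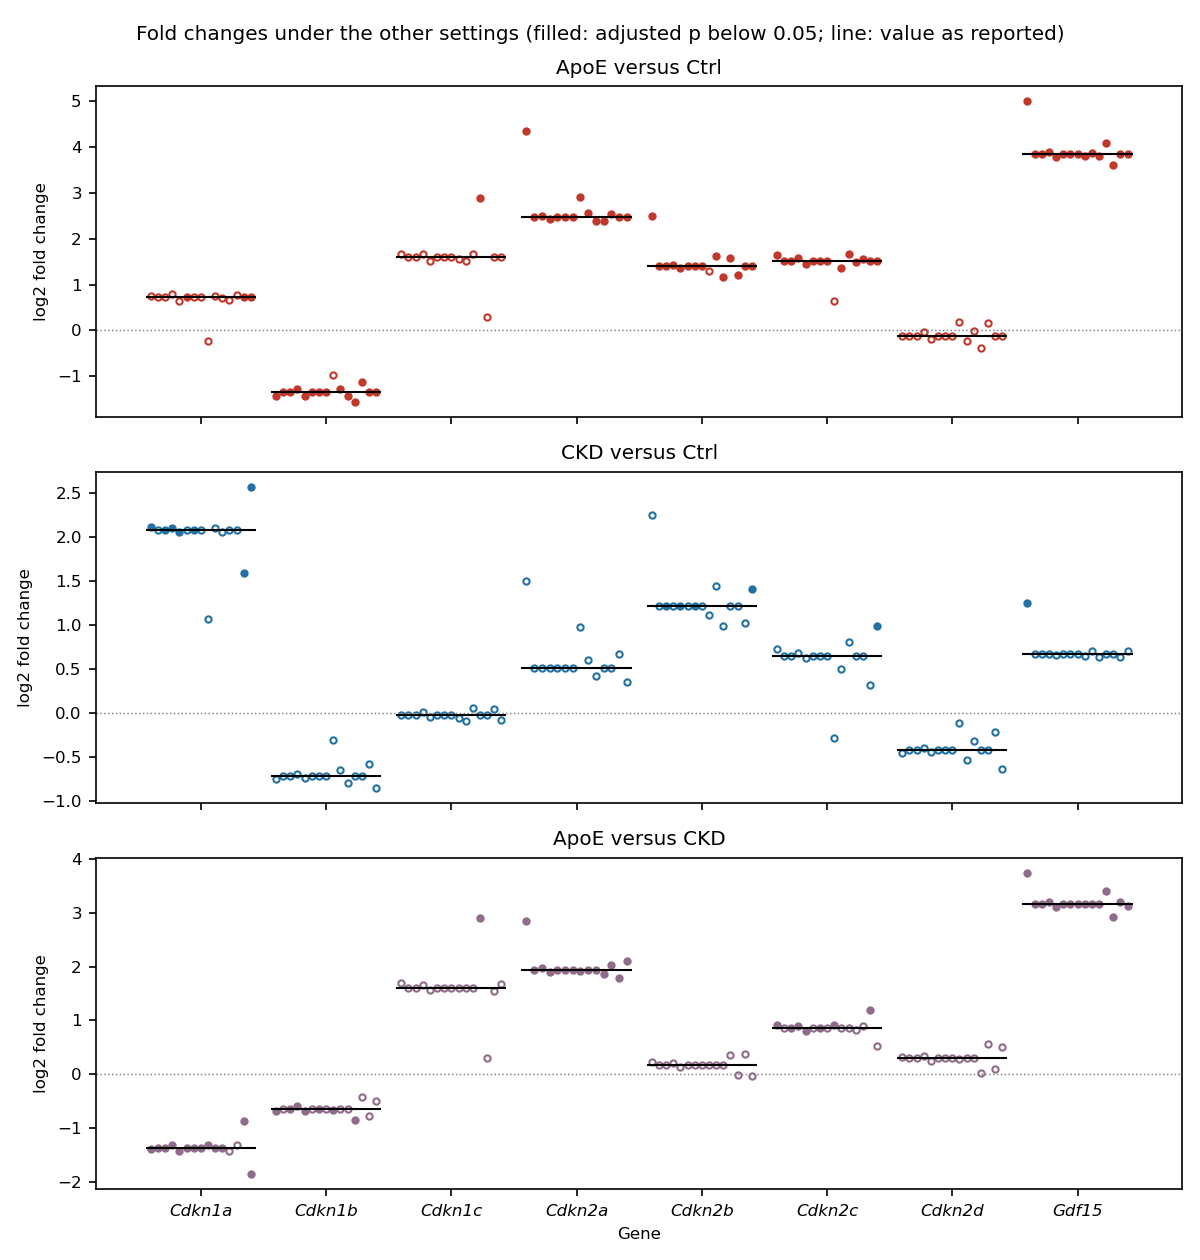
Log2 fold changes of each gene under 15 other settings (14 for Cdkn2a), filled where the adjusted p is below 0.05, with a line at the value as reported. Gdf15 and Cdkn2a stay filled in both ApoE comparisons, and Cdkn1a and Cdkn2b are partly open in CKD versus Ctrl.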

How the data were processed

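Aorta RNA of 6 libraries was compared (2 each of ApoE, CKD and Ctrl). The values the authors deposited were taken as FPKM from the values themselves, since no label or header names the unit; in 5 tables they were stacked with identifiers in 1 column. TopHat2, HISAT2 2.1.0, Bowtie2 2.2.3 and the build GRCm38 come from the submitters' processing notes, and their roles, the counter and the gene models are not named in any source used here. The kit, per the labels' protocols, did not mark strand. Symbols and exon lengths (GENCODE M21) matched 27695 identifiers. FPKM times exon length gave whole reads, within 0.05, for 95.3% to 95.8% of values of 1 to 20 reads; these reads serve for counts and exact 95% intervals, which cover counting error only, and 1 read in 2 kb of exon was worth 0.0301 to 0.0347 FPKM.

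Values were analysed as log2(FPKM + 1) for genes reaching 1 FPKM in 2 or more libraries, in 1 limma model of group means over all 6 libraries (limma 3.58.1, R 4.3.3, variance trend, robust spread), adjusted over all 14074 genes, and checked on simulated data. Other pseudocounts, filters, scalings, spread settings, a replicate block, an adipocyte covariate and leaving out each library were tried. Members and lists were chosen with earlier results of these data known. From each list up to 4 called genes with the smallest adjusted p were named per comparison, or up to 2 of the highest level where none was called, and for likeness the 3 highest correlations; genes outside this rule are said to be chosen after their values were seen, as are the values given as examples by library.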

Additional observations from a re-analysis of the deposited data

How the results depend on the processing

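With the adipocyte level as a covariate the calls of ApoE versus Ctrl went to 1589 genes, 2 members higher and 0 lower. Those of CKD versus Ctrl went to 0 genes and 0 members, and those of ApoE versus CKD to 6045 genes (5592 as reported). That level was lowest in Ctrl (4.05 and 5.15 on the log2 scale, beside 6.33 to 7.97 in the other libraries). In comparisons with Ctrl it therefore runs with the group, and calls lost there cannot show a part of fat. CKD versus Ctrl called 1 gene without the level filter, 1 from the 4 libraries of that comparison alone and 46 with the replicate block, and 0 members in each; with median-ratio scaling it called 1 member. ApoE versus CKD called 1 member lower under each of these 3 settings (no filter, 4 libraries, replicate block). Leaving out each library gave 3021 to 7019 genes for ApoE versus Ctrl (3021 without Ctrl 1, 3324 without Ctrl 2, 3582 without ApoE 2), 0 to 2416 for CKD versus Ctrl (0 without either Ctrl, 1 without either ApoE, 38 without CKD 1, 2416 without CKD 2; 0 to 3 members higher) and 2914 to 5045 for ApoE versus CKD (2914 without ApoE 2; 0 to 1 members lower). Replicate numbers did not pair the libraries: correlations of same-numbered deviations over 14074 genes were 0.046 (ApoE and Ctrl), -0.23 (CKD and Ctrl) and -0.097 (ApoE and CKD), so the block is a setting and no pairing.

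Directions turned as follows, none for a called value. Under the covariate, ApoE versus Ctrl gave -0.23 for Cdkn1a and 0.17 for Cdkn2d, and CKD versus Ctrl gave -0.28 for Cdkn2c, 0.089 for Cdk4, -0.50 for Id1, -0.095 for Skp1a, 0.24 for Ywhaz and 0.33 for Nr4a1. Other scalings gave 0.013 for Cdkn1c, -0.0046 for Id1 and -0.0017 for Dcn in CKD versus Ctrl. Leaving out a library spanned -0.39 to 0.15 for Cdkn2d in ApoE versus Ctrl and -0.022 to 0.37 for Cdkn2b in ApoE versus CKD. In CKD versus Ctrl it spanned -0.085 to 0.060 for Cdkn1c and -0.20 to 0.25 for Id1, -0.21 to 0.079 for Id3, -0.017 to 0.12 for Skp1a, -0.21 to 0.071 for Ywhaz, -0.25 to 0.30 for Dcn and -0.53 to 0.11 for Nr4a1. Ratios with a pseudocount of 1 kept their side of 1 in all 21 group means, but 8 moved by more than the spread between libraries. The log2 ratio of Gdf15 over Cdkn1a went to -5.51 in CKD (-6.23 as reported) and -4.10 in Ctrl (-5.50), and that of Cdkn2a over Cdkn2b to -0.99 in CKD (-1.80) and -0.29 in Ctrl (-1.25). Ratios of reads without each library were added after seeing the data: for Cdkn2b they spanned 4.09 to 11.9 in ApoE versus Ctrl and 3.49 to 10.1 in CKD versus Ctrl, highest without Ctrl 1, and 0.973 to 1.45 in ApoE versus CKD, below 1 without ApoE 2 (0.973) or CKD 2 (0.984). The cause of these shifts was not tested. With 2 libraries a group no exact test can pass the threshold, and 2 to 19 reads stand behind Cdkn2a, Cdkn2b and Gdf15 in Ctrl. The filter of at least 4 libraries left Cdkn2a untested. No gene or group had enough libraries for a test of outlying samples.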

Other observations

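Genes within 100 kb of the members were read as neighbours after their values were seen. Beside Cdkn1b, Apold1, a vascular early-response gene, stood at 2.36 and 1.72 FPKM in ApoE, 10.0 and 5.40 in CKD, and 0.404 and 0.926 in Ctrl (2.35 in CKD versus Ctrl, limma adjusted p = 0.0274), opposite to Cdkn1b itself, while Crebl2 on the other side fell in ApoE versus Ctrl (-0.94, adjusted p = 0.00584). Beside Gdf15, Lrrc25 rose by 3.41 (adjusted p = 0.000342) and Ssbp4 by 0.91 (adjusted p = 0.00277) in ApoE versus Ctrl, and Pgpep1, on the other side, stood at 7.71 and 8.33 FPKM in ApoE, 2.54 and 2.86 in CKD, and 6.80 and 6.59 in Ctrl (-1.06 in CKD versus Ctrl, adjusted p = 0.0227). Trp53cor1, a p53-induced noncoding RNA beside Cdkn1a, lay between 0.0229 and 0.403 FPKM in the 6 libraries and was not tested. The noncoding gene Lockd, downstream of Cdkn1b, lay between 0 and 0.104 FPKM.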
